A study of Mus musculus with 12 samples.

Results

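The genes described here are 10 genes of iron uptake, storage and hepcidin, measured in mouse liver after oral silver nanoparticles. They were taken as the probe sets whose only gene symbol was Hamp, Hamp2, Tfrc, Tfr2, Trf, Fth1, Ftl1, Slc40a1, Bmp6 or Slc11a2, and they are 10 of 30063 genes that a probe set of the array names alone. Each of the 10 had a single such probe set. The 12 mice were 3 months old and all, the controls included, were C57BL/6J -Oca2p-un/J animals, a strain named for its pink-eyed unstable allele of Oca2. Of the 3 groups of 4 mice, each with 2 females and 2 males, 1 received water. The others received silver particles of 20 nm coated with citrate (cit-AgNP) or with polyvinylpyrrolidone (PVP-AgNP), at 4 mg of silver per kg by gavage, in 7 daily doses. Total liver RNA was taken 24 h after the last dose and measured on 1 array per mouse. With 4 arrays in a group, precision was limited.

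Hepatocytes make hepcidin, the peptide hormone encoded by Hamp, which binds the iron exporter ferroportin (Slc40a1) and causes its degradation, so that less iron enters the blood. Hepcidin transcription is driven by BMP6, made mainly by the endothelial cells of the liver, which acts on hepatocytes through BMP receptors, the co-receptor hemojuvelin (Hjv) and SMAD proteins. It is also driven by inflammation, through interleukin 6 and STAT3. Inside the cell, iron regulatory proteins bind the transcripts of the transferrin receptor, of ferritin, of ferroportin and of DMT1 and adjust them to the iron supply.

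The genes of hepcidin and transferrin lay beyond the range of the deposited values. The table held log2 signals and stopped at 19.93, which is 999952 on the linear scale. Hamp was at this limit on all 12 arrays, and so was Trf, which encodes transferrin, the iron carrier of plasma. Hamp2, a second mouse gene of the hepcidin family, was at it on 10 arrays, with 19.54 and 19.68 in citrate replicates 3 and 4, both males. Fth1, which encodes the ferritin heavy chain, had a shared highest value of its own. On 10 of 12 arrays it held 16.33 to every deposited digit, and the others held 16.31 (citrate replicate 1) and 16.28 (PVP replicate 2). For Hamp, Hamp2 and Trf the arrays gave only a lower bound in water-treated mice. Whether the shared value of Fth1 is also a bound is not known, since the step that sets it is not given. For these 4 genes neither a fold change nor a test is given. The other 6 genes, Tfrc, Tfr2, Ftl1, Slc40a1, Bmp6 and Slc11a2, varied among the mice and passed the filter on low signal.

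**Figure D1:**
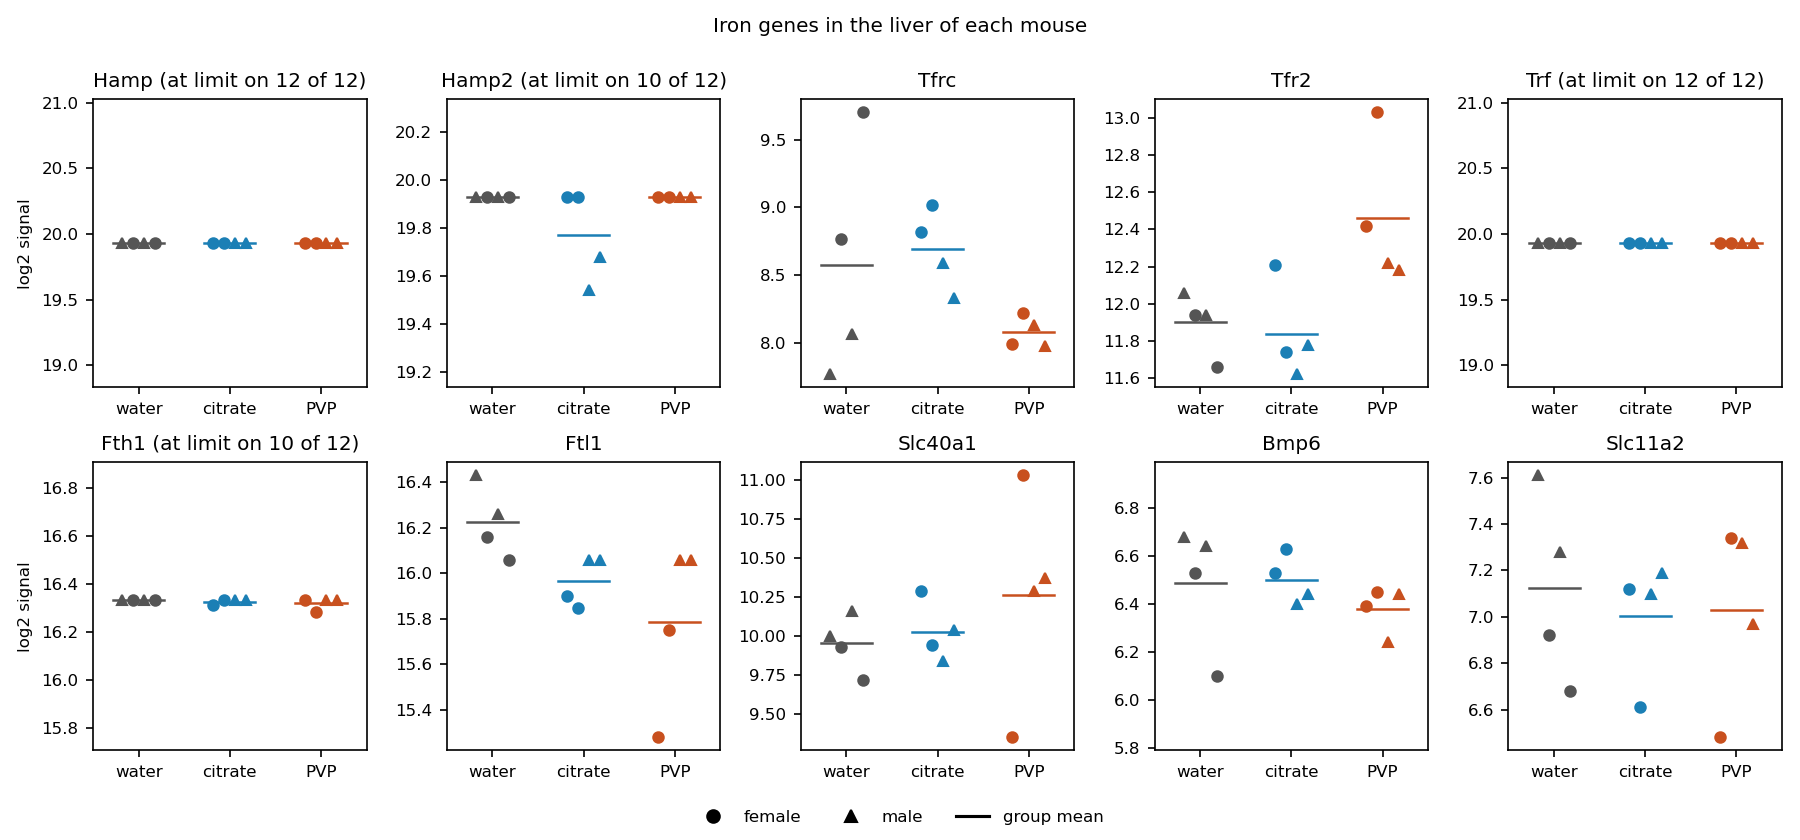
The log2 signal of each of the 10 iron genes in the 12 livers, in a panel per gene with its own vertical axis; circles are females, triangles males, and bars the mean of 4 mice. Hamp and Trf are flat at 19.93 in all livers, Tfr2 is higher in the 4 PVP-treated livers (12.18 to 13.03) than in the 4 water-treated ones (11.66 to 12.06), and Tfrc lies between 7.98 and 8.22 with PVP.

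The promoters of the hepcidin genes are shown because motifs for both routes of hepcidin control, BMP and inflammation, were searched in them. The 150 bases before the annotated start of each gene, from RefSeq (build GRCm38.p6), are printed from 5′ to 3′ on the minus strand, for Hamp at chr7:30944030-30944179 and for Hamp2 at chr7:30924182-30924331. Capitals mark matches to a BMP response element (GGCGCC) or to a STAT motif (TTCNNNGAA).
Hamp: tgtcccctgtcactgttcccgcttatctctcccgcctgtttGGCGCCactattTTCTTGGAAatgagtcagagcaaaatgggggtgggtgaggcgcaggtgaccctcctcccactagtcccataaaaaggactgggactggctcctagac
Hamp2: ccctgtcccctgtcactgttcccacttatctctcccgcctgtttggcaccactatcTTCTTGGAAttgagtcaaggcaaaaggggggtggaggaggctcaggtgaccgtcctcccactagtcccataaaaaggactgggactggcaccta
Both motifs read the same on both strands, and they do not overlap in Hamp. Over 147 aligned bases the promoters were 91.8% identical. At the place of the BMP element Hamp2 reads ggcacc, which differs by 1 base, G4A, counted from the 5′ end of the motif. Windows of the same length before the start held GGCGCC in 7.01% and TTCNNNGAA in 4.09% of 32851 promoters in the table. Of the 10 genes, 7 had a promoter there, 11 promoters in all. The BMP motif was found in that of Hamp and in 1 of Tfrc, and the STAT motif in those of Hamp and Hamp2. These matches describe letters and are no measure of binding.

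Differences between groups were tested with limma on 19985 genes with a term for sex, as two-sided tests, with the Benjamini-Hochberg adjustment across all of these genes and a threshold of 0.05. The fits of both coatings share the 4 water-treated mice. None of the 6 measurable iron genes passed in either comparison with water, where 0.005% of all genes passed with citrate and 0.04% with PVP. At an unadjusted p under 0.05 with PVP there were 2 of the 6, Tfr2 above and Ftl1 below the controls, against 20.3% of all genes tested. With citrate there was 1 of the 6, Ftl1, against 6.57% of all genes. The median log2 fold change of the 6 was -0.03 with citrate and -0.10 with PVP, beside 0.00 over all genes in both comparisons.

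Uptake of transferrin-bound iron is the task of the transferrin receptors. Tfrc encodes the receptor found on most cells, whose transcript is stabilised when iron is scarce. Its log2 signals were 7.77, 8.77, 8.07 and 9.70 in water replicates 1 to 4, 8.82, 9.02, 8.59 and 8.33 in citrate replicates 1 to 4, and 7.99, 8.22, 8.13 and 7.98 in PVP replicates 1 to 4. The water group was spread over the whole range, with its females (replicates 2 and 4) above its males, while the PVP livers lay close together, and each PVP liver was below each citrate liver. The group means were 8.57 ± 0.86 with water, 8.69 ± 0.30 with citrate and 8.08 ± 0.11 with PVP (log2, mean ± SD, n = 4 each). The log2 fold change against water was 0.11 with citrate (standard error, SE, 0.27, limma adjusted p = 1) and -0.49 with PVP (SE 0.27, limma adjusted p = 0.318), and the latter moved to -0.19 without water replicate 4. Between the coatings it was -0.61, PVP against citrate, with a 95% interval of -1.20 to -0.01 and a limma adjusted p of 0.353.

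Tfr2 encodes the second transferrin receptor, a protein of hepatocytes that takes part in sensing the iron load of transferrin and in the control of hepcidin. Its log2 signals were 12.06, 11.94, 11.94 and 11.66 with water, 12.21, 11.74, 11.62 and 11.78 with citrate, and 12.42, 13.03, 12.22 and 12.18 with PVP, in replicates 1 to 4. All 4 PVP livers were above all 4 water livers, while the citrate livers spanned the same range as the water livers. Tfr2 was the only one of the 6 genes whose PVP and water groups did not overlap, where 7.9% of all genes tested did not. The log2 fold change with PVP was 0.56 (SE 0.19, 95% interval 0.13 to 0.99), and it did not pass over all genes (limma adjusted p = 0.177). With citrate it was -0.06 (SE 0.19, 95% interval -0.49 to 0.36, limma adjusted p = 1), and PVP exceeded citrate by 0.63 (SE 0.19, limma adjusted p = 0.272). The value with PVP lay between 0.39 and 0.66 when each array was left out in turn, the lowest without PVP replicate 2.

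Among the storage genes, Ftl1 encodes the ferritin light chain, which helps to form the iron core of the ferritin shell. Its log2 signals were 16.43, 16.16, 16.26 and 16.06 with water, 15.90, 15.85, 16.06 and 16.06 with citrate, and 15.28, 15.75, 16.06 and 16.06 with PVP, in replicates 1 to 4. The treated livers were below the lowest water liver or within 0.002 of it, and the treated females were lower than the treated males. On 3 arrays the value was identical to every deposited digit and on 2 more it lay within 0.002 of it, so that this probe set did not resolve small differences near 16.06. The log2 fold change was -0.26 with citrate (SE 0.11, limma adjusted p = 0.749) and -0.44 with PVP (SE 0.11, 95% interval -0.69 to -0.19, limma adjusted p = 0.119).

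Ftl1 has near-identical copies in the mouse genome, and its signal may include theirs. The other 2 probe sets that list Ftl1 beside further symbols were looked at after the values of Ftl1 were seen. Their PVP livers averaged 0.53 and 0.58 below the water livers on the log2 scale, and their citrate livers 0.30 and 0.37 below; these were not tested. PVP replicate 1, with the lowest Ftl1 of all livers, also had the lowest separation of exon from intron control probe sets, an area of 0.778 where a value of 1 would be full separation. That of PVP replicate 4 was 0.794, and the other 10 arrays had 0.804 to 0.842. Without PVP replicate 1 the log2 fold change of Ftl1 was -0.31, and without both of these arrays it was -0.32 (limma adjusted p = 0.329). The part of array quality in these values was not tested further.

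Export and entry of iron depend on ferroportin and DMT1. Slc40a1, the ferroportin gene, is expressed in hepatocytes and strongly in the macrophages of the liver, and its log2 signals were 10, 9.93, 10.16 and 9.72 with water, 10.29, 9.94, 9.84 and 10.04 with citrate, and 9.35, 11.03, 10.29 and 10.37 with PVP. The PVP group held both the lowest and the highest liver of the 12, replicates 1 and 2. The log2 fold change was 0.07 with citrate (SE 0.29, limma adjusted p = 1) and 0.30 with PVP (SE 0.29, limma adjusted p = 0.559). The latter was 0.63 without PVP replicate 1 and 0.00 without PVP replicate 2. Slc11a2, which encodes DMT1, a transporter that moves iron across membranes into the cytosol, had log2 signals of 7.61, 6.92, 7.28 and 6.68 with water, 7.12, 6.61, 7.10 and 7.19 with citrate, and 6.48, 7.34, 7.32 and 6.97 with PVP. The 3 groups overlapped throughout, with log2 fold changes of -0.12 with citrate (95% interval -0.56 to 0.32) and -0.10 with PVP (95% interval -0.53 to 0.34). With PVP the sign turned to 0.04 without PVP replicate 1 and 0.01 without water replicate 1.

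Bmp6, the ligand that signals iron load to hepatocytes, had log2 signals of 6.68, 6.53, 6.64 and 6.10 with water, 6.53, 6.63, 6.40 and 6.44 with citrate, and 6.39, 6.45, 6.24 and 6.44 with PVP. Apart from water replicate 4, which was the lowest, the livers lay between 6.24 and 6.68. The log2 fold change was 0.01 with citrate, within a 95% interval of -0.26 to 0.29 and negative under some of the alternatives. It was -0.11 with PVP, within -0.38 to 0.17, and neither passed (limma adjusted p = 1 and 0.627). These intervals were the narrowest beside those of Ftl1 among the 6 genes.

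**Figure D2:**
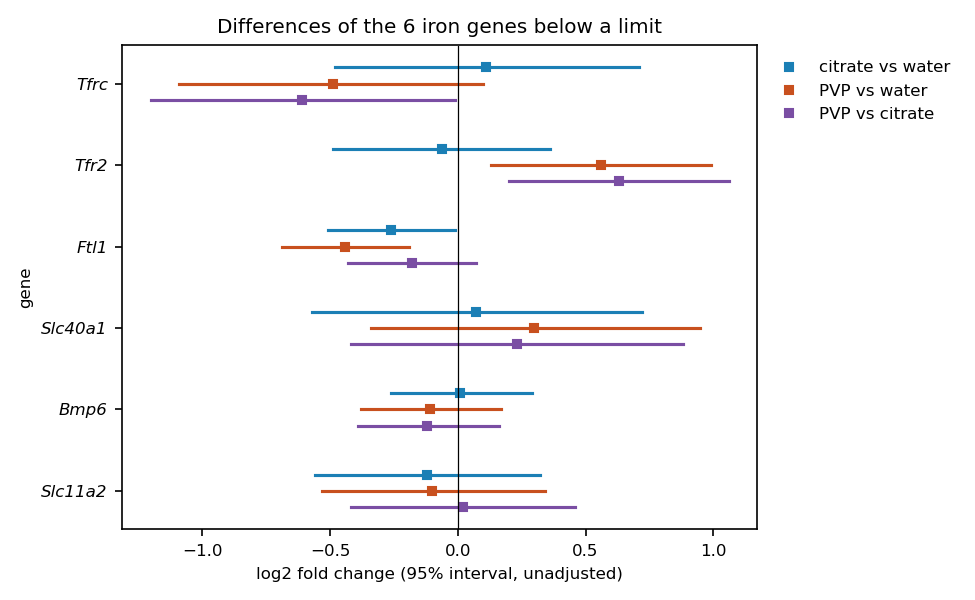
Log2 fold changes of the 6 iron genes that varied among the mice, with unadjusted 95% intervals from the limma fit, for citrate against water, PVP against water and PVP against citrate. The intervals of Tfr2 with PVP (0.13 to 0.99) and of Ftl1 with PVP (-0.69 to -0.19) do not reach 0, and none of the differences shown passed after adjustment over all genes.

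In liver tissue, fewer cells of a type and less RNA per cell cannot be told apart. Of 7 hepatocyte markers with a probe set, 6 were at a limit of the arrays and Hnf4a spanned 11.10 to 12.11. All 12 markers of Kupffer cells and macrophages were above 0 in both comparisons with water, with medians of 0.45 (citrate) and 0.43 (PVP) on the log2 scale, and none passed over all genes. Of the 19985 genes tested, 10024 were above 0 with citrate and 9845 with PVP. At an unadjusted p under 0.05, 1 of the 12 markers was above with citrate and 2 with PVP, where 2.75% and 8.05% of all genes were. The mean log2 signal of the 12 markers ranged from 7.57 to 8.78 with water, 7.84 to 9.18 with citrate and 7.90 to 9.95 with PVP. The highest value, 9.95, was that of PVP replicate 2, the liver with the highest Slc40a1 and the highest Tfr2. Of 10 markers of sinusoidal endothelial cells, the cells known for BMP6, 2 were above 0 with PVP (median -0.27) and 6 with citrate (median 0.06), and none passed, although 3 of the 10 were lower with PVP at an unadjusted p under 0.05, where 12.2% of all genes were. The mean log2 signal of these markers was 8.13 to 8.52 with water, 8.16 to 8.65 with citrate and 7.74 to 8.31 with PVP. For 8 stellate cell markers the mean was 7.20 to 7.57 with water, 7.08 to 7.39 with citrate and 6.74 to 7.22 with PVP, and for 7 neutrophil and monocyte markers 4.76 to 6.56, 5.86 to 6.55 and 5.95 to 7.66. Of 11 erythroid markers only 3 were above the filter, Alas2, Klf1 and Tmem14c, with a mean of 7.73 to 9.40 with water, 8.07 to 9.30 with citrate and 7.84 to 9.16 with PVP. The part of other cells in the iron genes' values was not tested.

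Since Hamp itself was at the limit, the genes that control hepcidin and the other targets of the same BMP signal were read from 21 genes listed for this pathway, of which 20 were measured. None passed in either comparison with water. At an unadjusted p under 0.05 there were 1 above and 5 below with PVP, where 8.05% of all genes tested were above and 12.2% below. With citrate there were 1 above and 4 below, where 2.75% of all genes were above and 3.82% below. PVP replicate 1, the array of lowest exon over intron area, held the lowest of the 12 values for 9 of the 20 genes (45.0%), as it did for 26.1% of the 19878 genes tested that were below a limit. Without this array the PVP counts were 2 above and 1 below, where 5.53% of all genes were above and 8.64% below. The median log2 fold change of the list was -0.15 with PVP and -0.12 with citrate, against 0.00 over all genes.

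Hjv, the hemojuvelin gene, came closest to the threshold. Its log2 signals were 10.45, 10.85, 10.94 and 10.89 with water, 10.50, 10.42, 10.26 and 10.55 with citrate, and 10.04, 9.83, 9.13 and 9.60 with PVP. Each PVP liver was below each water liver and each citrate liver, among females and among males. Of all genes tested, 7.9% had PVP and water groups that did not overlap, and 7.2% had such PVP and citrate groups. The log2 fold change with PVP was -1.13 (SE 0.17, 95% interval -1.50 to -0.76), with a limma adjusted p of 0.0566. It passed with other settings of the fit, such as equal shrinkage at all signal levels (limma adjusted p = 0.0281), and over 24 alternatives its adjusted p ranged from 0.0281 to 0.270. It passed in 4 of them, 1 of which was the fit without PVP replicate 3 (limma adjusted p = 0.0477). With citrate Hjv had -0.35 (SE 0.17, limma adjusted p = 0.792), and PVP was 0.78 below citrate (limma adjusted p = 0.212).

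Other genes of this control lay on either side of 0. Fgl1, which encodes a secreted hepatocyte protein that antagonises BMP signals to hepcidin and that also belongs to the acute phase response, had 12.68, 14.56, 13.03 and 14.71 with water, 16.49, 15.03, 14.08 and 14.83 with citrate and 17.34, 17.38, 14.21 and 15.88 with PVP (log2 signal, replicates 1 to 4). Its log2 fold change was 2.46 with PVP (SE 0.40, limma adjusted p = 0.0577) and 1.36 with citrate (SE 0.40, limma adjusted p = 0.494). Within each sex every PVP liver and every citrate liver was above every water liver, although the groups overlapped over both sexes. The share of all genes with such a separation within each sex was not counted. Tmprss6, the protease that cleaves hemojuvelin, had -0.61 with PVP (SE 0.26, limma adjusted p = 0.232), and PVP replicate 1 held its lowest value, 10.17, against 11.25 to 11.72 in replicates 2 to 4. Neo1, a membrane partner of hemojuvelin, had -0.35 with PVP (SE 0.13, limma adjusted p = 0.191), and Hfe, the hemochromatosis protein, -0.14 (SE 0.10, limma adjusted p = 0.402).

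With citrate, the 6 genes read here that BMP signals induce along with hepcidin were all below water, and with PVP 5 of them were. Of the 19985 genes tested, 10024 were above 0 with citrate and 9845 with PVP. The 6 BMP targets were brought together after their values were seen, and none passed over all genes. Id1, an inhibitor of transcription factor dimers, had log2 fold changes of -0.15 with citrate and -0.14 with PVP (SE 0.21 each). Smad7, which feeds back on the pathway, had -0.12 and -0.07 (SE 0.09 each), and Smad6, another inhibitor of the pathway, -0.38 and -0.15 (SE 0.08 each), with all citrate livers (5.04 to 5.28) below all water livers (5.36 to 5.71). Atoh8, a transcription factor linked to hepcidin, had -0.37 with citrate and 0.24 with PVP (SE 0.14 each), and its PVP livers (6.43 to 6.89) were above its citrate livers (5.81 to 6.38). Id2 had -1.58 with citrate (SE 0.40, limma adjusted p = 0.384) and -0.12 with PVP (SE 0.40), and its citrate livers (13.17 to 14.70) were all below its water livers (14.74 to 16.20). Id3, which like Id2 is a relative of Id1, had -0.39 with citrate (SE 0.13, limma adjusted p = 0.567) and -0.17 with PVP (SE 0.13), with citrate livers (5.22 to 5.38) again all below water livers (5.44 to 5.95). Groups that did not overlap made up 4.3% of all genes for citrate against water and 7.2% for PVP against citrate. Against water, the smallest limma adjusted p among these 6 genes was 0.257, that of Smad6 with citrate.

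**Figure D3:**
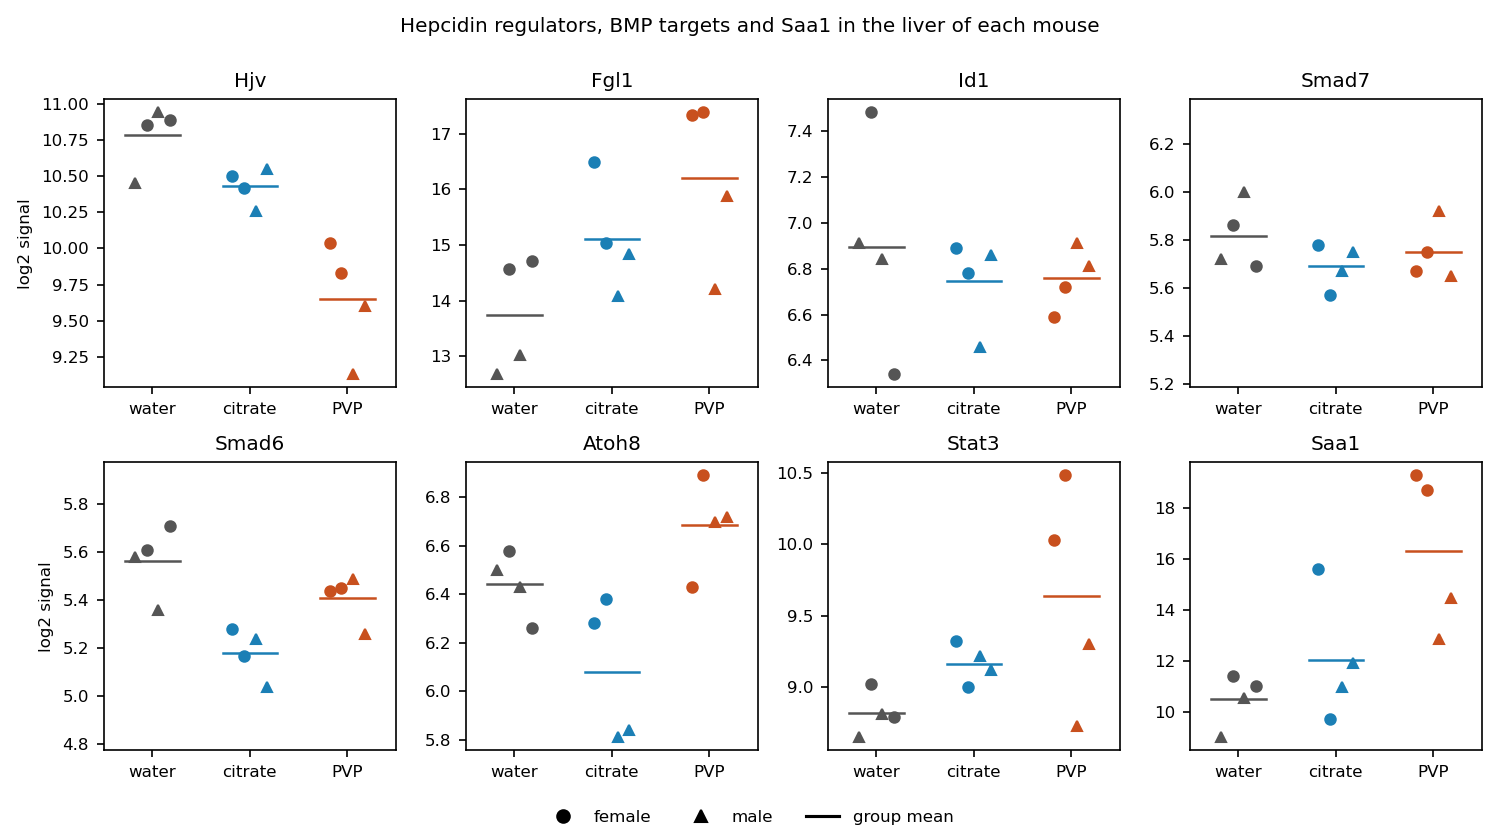
The log2 signal in the 12 livers of 2 regulators of hepcidin (Hjv, Fgl1), 4 targets of BMP signals (Id1, Smad7, Smad6, Atoh8), Stat3 and the acute phase gene Saa1; each panel has its own vertical axis, circles are females, triangles males and bars group means of 4 mice. The 4 PVP livers lie lowest for Hjv (9.13 to 10.04), and Saa1 is highest in the PVP-treated females (19.26 and 18.70).

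The inflammatory route to hepcidin was read from 14 measured genes, of which none passed in either comparison with water. With citrate 4 were above and 2 below at an unadjusted p under 0.05, where 2.75% of all genes tested were above and 3.82% below. With PVP 3 were above and 1 below, where 8.05% of all genes were above and 12.2% below. Without PVP replicate 1 there were 4 above and 0 below with PVP, where 5.53% of all genes were above and 8.64% below. The medians were 0.01 with citrate and -0.03 with PVP. Stat3, which carries the interleukin 6 signal to the hepcidin promoter, had 8.65, 9.02, 8.81 and 8.79 with water, 9.32, 9.0, 9.22 and 9.12 with citrate and 10.03, 10.48, 8.73 and 9.30 with PVP. The PVP-treated females were the highest of the 12 livers. Its log2 fold change was 0.82 with PVP (SE 0.26, limma adjusted p = 0.159). Il1r1, an interleukin 1 receptor, had 1.68 with citrate and 1.53 with PVP (SE 0.64 each, limma adjusted p = 0.626 and 0.220), and Cebpb, a transcription factor of the acute phase, 0.54 and 0.46 (SE 0.15 each). Il22ra1, a subunit of the interleukin 22 receptor, had -0.53 with citrate (SE 0.19, limma adjusted p = 0.586). Il6 was below the filter on low signal.

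The acute phase genes Saa1 and Saa2 stood beside these values. Saa1 had 9.0, 11.41, 10.53 and 11.02 with water, 15.60, 9.71, 10.96 and 11.92 with citrate, and 19.26, 18.70, 12.84 and 14.46 with PVP, and Saa2 reached 19.34 and 19.28 in the PVP-treated females. Neither passed with PVP (limma adjusted p = 0.0877 and 0.0757). Of 11 measured acute phase genes 9 were above with PVP at an unadjusted p under 0.05, where 8.05% of all genes were. Without PVP replicates 1 and 4 there were again 9, where 4.12% of all genes were above. That fit kept only PVP replicates 2, a female, and 3, a male. In females against males 9 of the 11 were above at that p as well, where 6.36% of all genes were. The PVP-treated males were not alike across the list. Their Serpina3n was 16.29 and 15.95, within the 15.79 to 16.41 with water. Their Saa3 was 4.94 and 5.74, above the 4.59 to 4.81 with water. The PVP-treated females, replicates 1 and 2, thus had the highest Saa1, Fgl1, Stat3 and Tfr2 of the 12 livers, and Hamp could not be compared with them because it did not leave the limit. The part of the inflammatory state in the values of Tfr2 was not tested.

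Within the cell, 9 genes of iron sensing and ferritin handling were measured. None passed, and with PVP 1 of 9 was above 0, with a median log2 fold change of -0.23. With citrate 6 of 9 were above 0, with a median of 0.01. Of the 19985 genes tested, 9845 were above 0 with PVP and 10024 with citrate. Aco1 and Pcbp2, 2 of the 9, were below with PVP at an unadjusted p under 0.05, where 12.2% of all genes were. With citrate 0 of the 9 were below, where 3.82% of all genes were. PVP replicate 1 held the lowest value for 6 of the 9 (66.7%), as it did for 26.1% of the 19878 genes tested that were below a limit. Without PVP replicates 1 and 4 the count below was 0, where 5.58% of all genes were below, and the median was -0.08. Aco1, which encodes iron regulatory protein 1, had -0.46 with PVP (SE 0.16, limma adjusted p = 0.181) and -0.15 with citrate. Pcbp2, a chaperone that hands iron to ferritin, had -0.36 with PVP (SE 0.12, limma adjusted p = 0.173) and -0.24 with citrate. Epas1, the hypoxia-inducible factor HIF-2α, had -0.54 with PVP (SE 0.28, limma adjusted p = 0.295). Ncoa4, the receptor that brings ferritin to autophagy, had 10.38, 10.37, 10.45 and 10.82 with water, 10.77, 11.12, 10.59 and 10.91 with citrate and 9.64, 10.39, 10.47 and 10.26 with PVP. Its PVP livers were all below its citrate livers (log2 fold change -0.66, SE 0.20, limma adjusted p = 0.272), and PVP replicate 1 was the lowest. These 2 groups did not overlap for 7.2% of all genes tested.

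Other genes of iron and heme transport included 17 that were measured. None passed, with medians of -0.01 with citrate and 0.12 with PVP. With PVP 2 were above and 2 below at an unadjusted p under 0.05, where 8.05% of all genes tested were above and 12.2% below. Without PVP replicate 1 there were 4 above and 0 below, where 5.53% and 8.64% of all genes were. Without PVP replicates 1 and 4 there were again 4 and 0, where 4.12% and 5.58% were. PVP replicate 1 held the lowest value for 4 of the 17 (23.5%), Slc39a8, Steap3 and Slc25a37 among them, as it did for 26.1% of the 19878 genes below a limit. With citrate 0 were above and 1 below, where 2.75% of all genes were above and 3.82% below. Lcn2, a lipocalin that binds the iron carriers of bacteria, had 11.13 and 13.60 in the PVP-treated females, 5.99 and 5.67 in the PVP-treated males and 4.44 to 6.54 with water (log2 fold change 3.94, SE 1.07, limma adjusted p = 0.128). With citrate Lcn2 had 4.96 to 9.14, the highest in replicate 1, a female (log2 fold change 1.33, SE 1.07, limma adjusted p = 0.959). Hp, which encodes the haemoglobin-binding plasma protein haptoglobin, had 0.49 with PVP (SE 0.15, limma adjusted p = 0.149), and 4 arrays shared a value of 18.40, so that small differences were not resolved. Slc39a8, a metal importer of the ZIP family, had -0.41 with PVP (SE 0.16, limma adjusted p = 0.202). Slc25a37, the mitochondrial iron importer mitoferrin 1, had -0.40 with citrate (SE 0.15, limma adjusted p = 0.617) and -0.32 with PVP (SE 0.15, limma adjusted p = 0.261). Steap3, a ferrireductase, had -0.17 with citrate (SE 0.08, limma adjusted p = 0.825) and -0.19 with PVP (SE 0.08, limma adjusted p = 0.242). Hpx, which encodes the heme scavenger hemopexin, was at the limit on 10 arrays.

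Of 16 measured genes of iron-sulfur cluster assembly, 2 were above 0 with PVP and 6 with citrate, with medians of -0.20 and -0.03, and none passed. Over the 19985 genes tested, 9845 were above 0 with PVP and 10024 with citrate. Cisd1, an iron-sulfur protein of the outer mitochondrial membrane, had -0.65 with PVP (SE 0.19, limma adjusted p = 0.146). Iscu, the scaffold on which clusters are built, had -0.46 (SE 0.15, limma adjusted p = 0.166), and Ciao1, of the cytosolic assembly machinery, -0.35 (SE 0.11, limma adjusted p = 0.163). At an unadjusted p under 0.05 with PVP there were 5 of 16, all below, where 12.2% of all genes tested were below at that p. PVP replicate 1 held the lowest of the 12 values for 6 of these 16 genes (37.5%), Iscu at 6.75 and Ciao1 at 7.56 among them. Without it 4 of 16 were below at that p, and without PVP replicates 1 and 4 there were 2, where 8.64% and 5.58% of all genes were below. The median was then -0.16 and -0.10. The part of array quality in these values was not tested further.

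**Figure D4:**
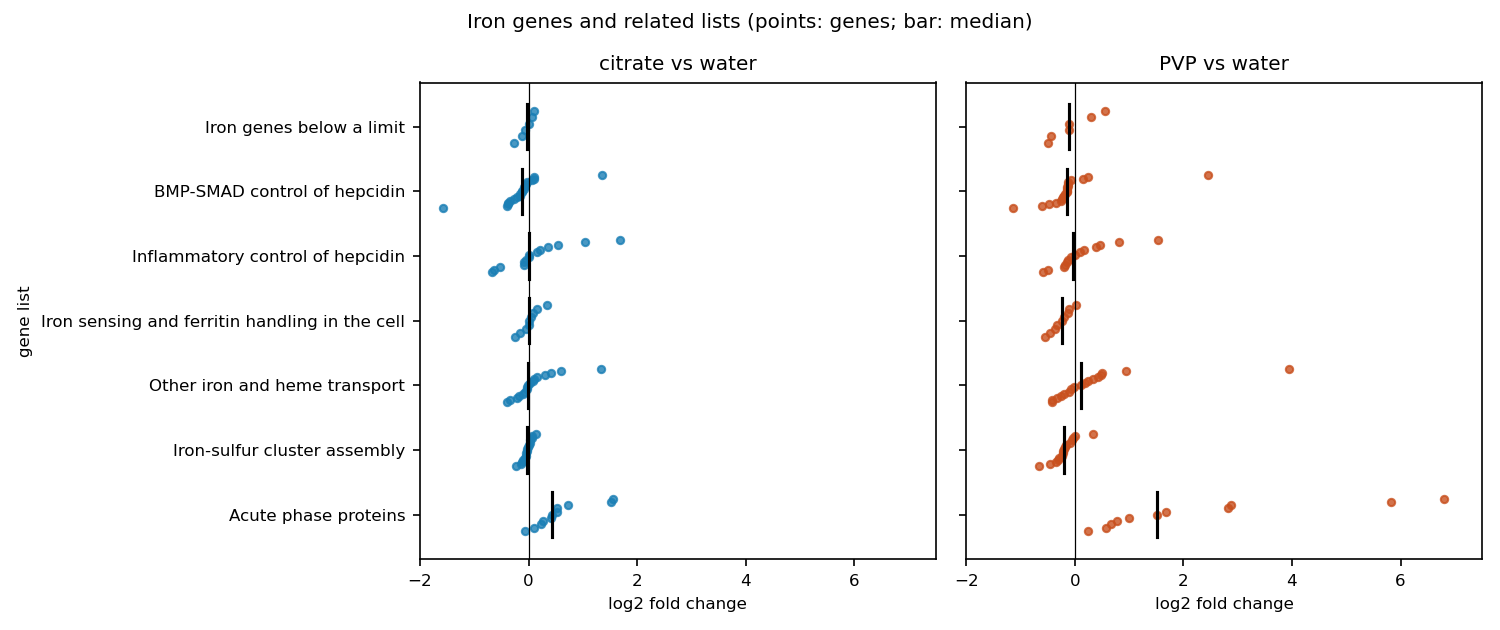
Log2 fold changes against water of the 6 measurable iron genes and of 6 related lists, with citrate on the left and PVP on the right; each point is a gene and each bar the median of its list. With PVP the acute phase list reaches furthest to the right (median 1.52), while the medians of the iron genes (-0.10), of iron sensing (-0.23) and of iron-sulfur assembly (-0.20) lie just below 0.

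The coatings were also compared with each other, PVP against citrate, where 0% of all genes tested passed. None of the 6 iron genes passed, and at an unadjusted p under 0.05 there were 2 of 6, Tfr2 above and Tfrc below, against 14% of all genes. Tfrc was also the only one of the 6 whose PVP and citrate groups did not overlap, where 7.2% of all genes did not. With citrate against water no iron gene had groups that did not overlap, where 4.3% of all genes had. The difference between PVP and citrate was -0.18 for Ftl1 (95% interval -0.43 to 0.07), 0.23 for Slc40a1 (-0.42 to 0.88), -0.12 for Bmp6 (-0.39 to 0.16) and 0.02 for Slc11a2 (-0.42 to 0.46), on the log2 scale. These intervals leave room for differences of either sign.

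Iron stores and hepcidin are known to differ between female and male mice, and sex was balanced over the groups. None of the 6 genes passed between the sexes, where 2.18% of all genes tested did. At an unadjusted p under 0.05 there were 3 of 6, against 15.3% of all genes. Tfrc was 8.75 ± 0.60 in females and 8.14 ± 0.29 in males (log2, mean ± SD, n = 6 each; log2 fold change 0.61, SE 0.22, limma adjusted p = 0.222). Ftl1 was 15.83 ± 0.31 and 16.15 ± 0.16 (log2 fold change -0.32, SE 0.09, limma adjusted p = 0.124), and Slc11a2 6.86 ± 0.33 and 7.24 ± 0.22 (log2 fold change -0.39, SE 0.16, limma adjusted p = 0.288). By direction, 1 of the 6 was above in females and 2 below, where 6.36% of all genes were above and 8.93% below. Markers of other cells moved with sex as well. The mean of the 3 erythroid markers was 7.73 to 8.41 in females and 8.84 to 9.40 in males, with no overlap. Alas2, the erythroid enzyme that starts heme synthesis, was 7.37 to 8.88 in females and 10.28 to 11.36 in males (log2 fold change -2.94, SE 0.26, limma adjusted p = 0.000211), Tmem14c had -0.47 (limma adjusted p = 0.155) and Klf1 0.05. All 12 Kupffer cell and macrophage markers were above 0 in females, with a median of 0.72 and none past the threshold. Of the 19985 genes tested, 8534 were above 0 in females. At an unadjusted p under 0.05, 8 of the 12 markers were above, where 6.36% of all genes were. The mean of the 12 markers spanned 7.57 to 9.95 among the females against 7.81 to 8.09 among the males. The part of these cells in the differences of Tfrc, Ftl1 and Slc11a2 between the sexes was not tested. Among the related genes, named here after their values were seen, Scara5, a receptor for ferritin, was lower in females by a log2 fold change of -0.90 (SE 0.16, limma adjusted p = 0.0186), at 4.36 ± 0.21 in females and 5.26 ± 0.39 in males. Fgl1 was higher in females by 1.80 (SE 0.33, limma adjusted p = 0.0204).

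The response to the coatings was then compared between the sexes, from 2 mice per mean. The PVP effect on Tfrc was -1.13 in females, from a mean of 9.23 to 8.11, and 0.14 in males, from 7.92 to 8.06. The difference, females minus males, was -1.27 (SE 0.40, 95% interval -2.18 to -0.35), which did not pass over all genes (limma adjusted p = 1). The water-treated females thus differed from the water-treated males in Tfrc more than the PVP-treated mice did. For Tfr2 the PVP effect was 0.93 in females and 0.20 in males (difference 0.73, SE 0.35, limma adjusted p = 1). For Bmp6 the citrate effect was 0.26 in females and -0.24 in males (difference 0.51, SE 0.20, limma adjusted p = 1). None of the 6 genes passed in these comparisons, where 0% of all genes did; at an unadjusted p under 0.05 there was 1 of 6 with PVP, Tfrc, and 1 of 6 with citrate, Bmp6, against 3.62% and 2.45% of all genes.

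The genes whose log2 signals over the 12 arrays ran most like those of Tfrc were Tob1 (Pearson r = 0.96), Bmp10 (0.94), Ets2 (0.93), Ptpn9 (0.93) and Proser2 (0.92). These are descriptions over 12 arrays that share 3 groups and both sexes, picked as the highest of all genes tested. The same could not be done for Hamp, which had no variation.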

How the data were processed

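Liver RNA of 12 mice was measured, 1 array each. The deposited values are log2 signals; per the submitters' processing notes RMA and Transcriptome Analysis Console 4.0.1.36 were used, in roles not given, and the genome build is not given in the sources used here. Groups and sex came from the labels. A probe set stood for a gene if the platform's table gave it 1 symbol (updated through RefSeq GRCm38.p6), the highest mean over the arrays deciding between several. Of 30063 genes, the 19985 with a mean above the 40th percentile of probe sets (3.93) entered limma 3.58.1 (R 4.3.3) with terms for group and sex and shrinkage along the mean signal. A second fit had 1 mean for each sex in each group, 6 in all. A gene was set aside as at a limit where 3 or more arrays shared its highest value exactly; 107 genes tested were. The fit was tried on simulated data.

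The 10 genes, the lists and the tests were chosen with earlier results of these data known. Named were all 10 genes, up to 3 genes of smallest p per list and coating, the 5 genes most like Tfrc, Saa1 and Saa2. Tmprss6, Hfe, the BMP targets, Lcn2 in single mice and Ncoa4 between coatings were added after their values were seen. So were Serpina3n and Saa3 in the PVP-treated males and the genes and markers that differ by sex. Lists are given by counts and medians, with no set test. The alternatives were the filter, the sex term, the groups fitted, a replicate block, the shrinkage, array weights, scaling, the probe set rule, arrays left out, and, added after seeing the data, array quality as a covariate and a fit without genes at a limit.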

Additional observations from a re-analysis of the deposited data

Results flagged for a closer look

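In 38 named genes, each group of 4 mice was checked for a mouse far from the others. The gap to its neighbour over the group's range was set against Dixon's critical value. Of 114 groups, 7 were flagged, where chance flags about 1 in 20 groups without tied values. Groups without any spread, such as those of Hamp and Trf, are counted in the 114 but could not be flagged. The flags of Fth1 and Hp rest on tied values, to which this rate does not apply. Of the iron genes, Slc11a2 was 6.61 in citrate replicate 2, against 7.10 to 7.19 in the other citrate livers. Fth1 was 16.31 in citrate replicate 1 and 16.28 in PVP replicate 2, against 16.33 in the others of each group, the highest value of that probe set and shared to every digit. Hp was 18.05 in citrate replicate 2 and 18.40 in the others, a value shared to every digit. Slc39a8 was 8.26 in water replicate 4, against 7.52 to 7.62. Saa4 was 19.93 in PVP replicate 2, against 18.37 to 18.47. Orm1 was 17.61 in water replicate 3, against 18.04 to 18.07. None of the differences between the sexes in response to a coating passed among these genes.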

How the results depend on the processing

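The count of 0 iron genes past the threshold was kept in every comparison under all alternatives run, 24 for each comparison between groups and 22 for sex and for the coating effect by sex. The counts over all genes were not stable. With citrate the count of 1 became 0 without the term for sex, with only the 2 groups compared, with median centring or without the 2 PVP arrays of lowest exon over intron area, 2 without the trend, with quantile normalization or without probe sets that share a highest value, 5 with array weights or with exon over intron area as a covariate, and 0 to 6 when each array was left out. With PVP the count of 8 became 4 without the filter, 2 without sex or with the area as a covariate, 0 with only the 2 groups compared, quantile normalization or without those 2 arrays, 52 without the trend, 37 with array weights, 3 with median centring, 5 with the mean of probe sets, 13 without shared highest values, and 1 to 61 when each array was left out (61 without PVP replicate 3); the cause was not tested. Only values with an interval that held 0 changed sign. Bmp6 with citrate was -0.03 with array weights, -0.01 with median centring and 0 with the area as a covariate, and Slc11a2 with PVP 0.21 without the 2 arrays and 0.11 with the covariate. With each array left out, citrate values ranged from -0.07 to 0.42 for Tfrc, -0.19 to 0.03 for Tfr2, -0.04 to 0.16 for Slc40a1 and -0.13 to 0.08 for Bmp6, and the PVP value of Slc11a2 from -0.28 to 0.04. Median centring moved the median of all genes with PVP by -0.10 and quantile normalization by -0.06. With the replicate number as a block, 0 genes passed with either coating and Tfr2 with PVP had a limma adjusted p of 0.255. After the terms for group and sex, the deviations of same-numbered mice correlated with r from -0.44 to 0.23. Mice of different numbers were not set beside them, so these values cannot settle whether the numbers pair the samples. Signals at the limit of the table allow no fold change for Hamp, Hamp2 or Trf. None is given for Fth1 either, since it is not known whether its shared highest value is a bound.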
